A study of Homo sapiens with 29 samples.

Results

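The 76 cytosolic ribosomal protein genes described here are those whose symbol in the RNA-seq table is RPL or RPS followed by a number (with an A or X suffix allowed), together with RPSA, RPLP0, RPLP1 and RPLP2, outside chromosome Y. They are 76 of 38148 gene rows, 45 of them for the large (60S) and 31 for the small (40S) ribosomal subunit, and all 76 passed the filter on low values that left 17973 genes for testing. In the ChIP-seq table, 61 of 49916 regions carry 1 of these symbols as the nearest feature, and they cover 42 of the 76 genes. In 21 of the 76 gene rows the deposited annotation names another, overlapping gene, and the strand that was counted is not given in the sources used here, so reads of those 21 genes could include reads of a neighbour. Near-identical processed pseudogenes also exist for most ribosomal protein genes, and how reads that match several places were counted is not given either.

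The cells were HCT116, an established human colorectal carcinoma line, in 4 groups. Cells with DAXX siRNA and crotonate received 35 nM siRNA against DAXX and 10 mM crotonic acid, cells with non-targeting siRNA and crotonate received 25 nM non-targeting siRNA and 10 mM crotonic acid, and the same 2 siRNAs at the same doses were given without crotonate. DAXX deposits the histone variant H3.3 into chromatin, and crotonate is a short-chain fatty acid that cells can convert to crotonyl-CoA, the donor for lysine crotonylation (Kcr). The DAXX siRNA dose was thus higher than that of the non-targeting siRNA, and the series text gives 18 h of crotonate while the sample protocol gives 48 h. RNA was sequenced in 4 libraries per group, and Kcr was mapped with a pan-crotonyllysine antibody in 4 libraries per siRNA without crotonate and 2 with it, beside 1 input library. The labels do not say that replicates came from separate cultures, so p-values measure only the spread between these libraries, which may be technical.

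Ribosomal proteins assemble with ribosomal RNA into a 40S subunit, which decodes the messenger, and a 60S subunit, which forms the peptide bond and releases the chain through an exit tunnel. Their genes have housekeeping promoters that begin transcription at a pyrimidine-rich initiator (the TCT initiator), so their messengers start with a 5' terminal oligopyrimidine tract (TOP). Through this tract their translation is tuned by the kinase complex mTORC1, and cells coordinate their output with ribosomal RNA synthesis by RNA polymerase I.

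The start regions of 6 members are shown because the RNA results below turn on these genes. Each runs from 40 bases before the annotated start through the first 20 transcribed bases, 5' to 3' on the gene's strand, from RefSeq on GRCh38.p14. Capitals mark the run of pyrimidines at the start or, where the start base is a purine, the first run after it. RPL14 lies at chr3:40457299-40457358 on the plus strand, RPL27A at chr11:8682752-8682811 on the plus strand, RPS12 at chr6:132814529-132814588 on the plus strand, RPS4X at chrX:72277229-72277288 on the minus strand, RPL39 at chrX:119791611-119791670 on the minus strand and RPS29 at chr14:49598691-49598750 on the minus strand.
RPL14: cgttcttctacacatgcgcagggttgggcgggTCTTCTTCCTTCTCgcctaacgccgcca
RPL27A: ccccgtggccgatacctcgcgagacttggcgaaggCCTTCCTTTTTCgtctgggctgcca
RPS12: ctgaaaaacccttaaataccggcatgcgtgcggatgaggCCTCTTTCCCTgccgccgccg
RPS4X: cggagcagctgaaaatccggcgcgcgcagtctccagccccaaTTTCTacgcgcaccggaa
RPL39: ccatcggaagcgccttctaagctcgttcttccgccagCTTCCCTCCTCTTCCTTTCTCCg
RPS29: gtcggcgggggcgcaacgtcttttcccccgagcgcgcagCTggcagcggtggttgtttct

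RPL14, RPL27A, RPS12 and RPL39 have a C at the annotated start inside a run of 11 to 22 pyrimidines, whereas the annotated start of RPS4X is an A shortly before a short run and that of RPS29 is a T that ends one. Of the 76 members, 61 had a window in the RefSeq promoter table. The TCT initiator, taken as a C at the start followed by at least 4 pyrimidines in the next 5 bases on the gene's strand, stood at an annotated start of 47 of these 61 members (77%), against 8.01% of the 27305 genes in the table. Within 10 bases of the start it was found in 57 of 61 (93.4%), against 60.9% of all genes. Over the 300 bases of the window and on both strands, CCGGAA, the core bound by ETS and GABP factors, occurred in 35 of 61 members (57.4%) against 20.1% of all genes. AANATGGC, the YY1 core, occurred in 10 (16.4%) against 7.97%, GGGCGG, the SP1 core, in 36 (59%) against 48.3%, and the TATA box TATAAA in 5 (8.2%) against 14%. These are letter matches in annotated windows, not measured binding, and a gene with several annotated starts counted once if any of its windows matched.

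DAXX RNA averaged 19.3 ± 4.67 RPM (reads scaled to a library of 1000000, SD, n = 4) in DAXX siRNA cells with crotonate and 100.3 ± 3.38 RPM in non-targeting cells with crotonate. It averaged 24.6 ± 2.06 RPM in DAXX siRNA cells and 103 ± 1.6 RPM in non-targeting cells without crotonate. The RNA libraries held 35003617 to 55128007 reads in genes and the anti-Kcr libraries 2226835 to 3639130 reads in regions. Colon epithelial markers were present, with EPCAM at 220.5 to 313 RPM, KRT8 at 2192 to 2870.2 RPM and CDX2 at 13.7 to 20.5 RPM, but KRT20 was at 0.507 to 1.84 RPM, CDX1 had no read in any of the 16 libraries, LGR5 none in 9 and MUC2 none in 4. EPCAM fell with crotonate in DAXX siRNA cells (-0.27 log2, limma adjusted p = 0.0191, and -0.39, adjusted p = 0.0021, after each library was centred on its median) and, after that centring, in non-targeting cells (-0.31, adjusted p = 0.0101). CDH1 of the same list rose on the deposited scale, by 0.29 log2 in DAXX siRNA cells (limma adjusted p = 0.0174) and 0.32 in non-targeting cells (adjusted p = 0.00866). After centring, KRT18 fell in DAXX siRNA cells (-0.24, limma adjusted p = 0.0381) and KRT8 in non-targeting cells (-0.26, adjusted p = 0.0226). The stromal matrix genes DCN and LUM had no read in any of the 16 libraries. Of 5 tested genes of the stroma and endothelium list (10 genes), 2 rose with crotonate in each siRNA arm by limma on the deposited scale, while after median-centring 1 rose in DAXX siRNA cells (COL1A1, 0.54 log2, limma adjusted p = 0.0294) and 0 in non-targeting cells. Its summed level was 24.8 to 33.4 RPM in DAXX siRNA cells with crotonate, 23.5 to 29 RPM in non-targeting cells with crotonate, 15.7 to 23 RPM in DAXX siRNA cells and 15.3 to 25.6 RPM in non-targeting cells. The part of these markers in the results below was not tested. The 9 immune and blood genes summed to 10.3 to 13.7 RPM, 7.26 to 10.4 RPM, 10.4 to 12.3 RPM and 8.91 to 12.9 RPM in the same order of groups, with 0 of 2 tested genes called for crotonate by limma on the deposited scale. After median-centring CD68 fell in non-targeting cells (-0.41 log2, limma adjusted p = 0.0416).

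Each ribosomal protein gene rested on many reads, with 3741 as the fewest for any member in any library (RPS28). As a share of all RNA reads, the 76 genes together took 5.34%, 6.36%, 6.98% and 6.55% in the 4 libraries of DAXX siRNA cells with crotonate and 6.61%, 6.52%, 6.56% and 6.83% in those of non-targeting cells with crotonate. They took 7.04%, 6.99%, 7.65% and 6.95% in DAXX siRNA cells, and 6.21%, 7.58%, 7.44% and 6.73% in non-targeting cells. The mean share was 6.31 ± 0.696% in DAXX siRNA cells with crotonate and 7.16 ± 0.331% in DAXX siRNA cells, and the 2 groups overlapped through library 3 with crotonate (6.98%). With non-targeting siRNA it was 6.63 ± 0.137% with crotonate and 6.99 ± 0.641% without, and the groups overlapped widely. In bulk RNA, fewer cells that express a gene and less RNA per cell cannot be told apart, and a share is relative to all other transcripts in the library.

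**Figure D1:**
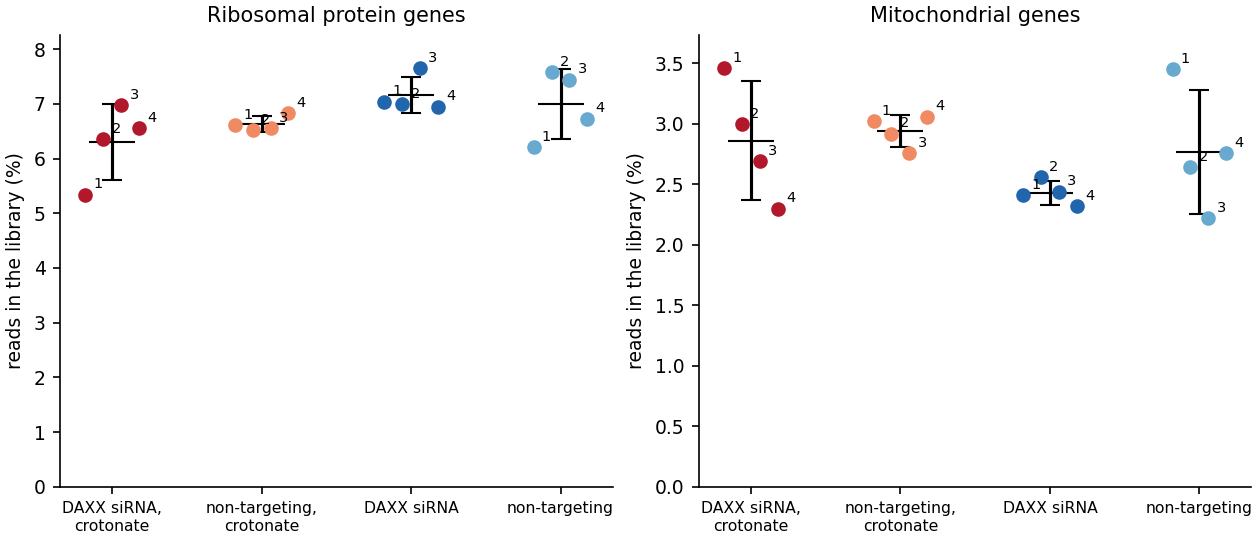
Percent of RNA reads in each library that fell on the 76 ribosomal protein genes, beside the percent on mitochondrial genes, with 4 libraries per group as points and the group mean and SD. Library 1 of DAXX siRNA cells with crotonate (5.34%) and library 1 of non-targeting cells (6.21%) hold the lowest ribosomal protein shares and the highest mitochondrial shares (3.46% and 3.45%).

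The libraries with the lowest member share were low within their groups across most of the gene set. In library 1 of DAXX siRNA cells with crotonate, 74 of the 76 genes lay below their group mean, by a median of -0.27 log2, while the median over all tested genes was 0.0072. In library 1 of non-targeting cells, 69 of 76 lay below their group mean, by a median of -0.19. Library 4 of that group also had 50 of 76 below it, by a median of -0.034. The largest single departure was RPS21, a 40S protein, at -0.76 log2 in library 1 of DAXX siRNA cells with crotonate. These libraries also had the highest mitochondrial share, 3.46% and 3.45%, against 2.22% to 3.06% in the other 14; the part of RNA quality in this was not tested.

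Members moved together from library to library. The deviations of 2 members from their group means had a median correlation of 0.608 over the 16 libraries, and 92.1% of the 2850 pairs had a positive one. These correlations are a description, since all members share the same libraries and depth, and centring each library on its median left the value at 0.602. They were not computed for other genes, so whether they are particular to ribosomal protein genes was not tested. The median SD within groups was 0.172 log2 for members, against 0.124 for the 1512 tested genes at or above the lowest member mean. It ranged from 0.071 log2 for RPS6, the substrate of S6 kinase, to 0.354 log2 for RPS21.

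**Figure D2:**
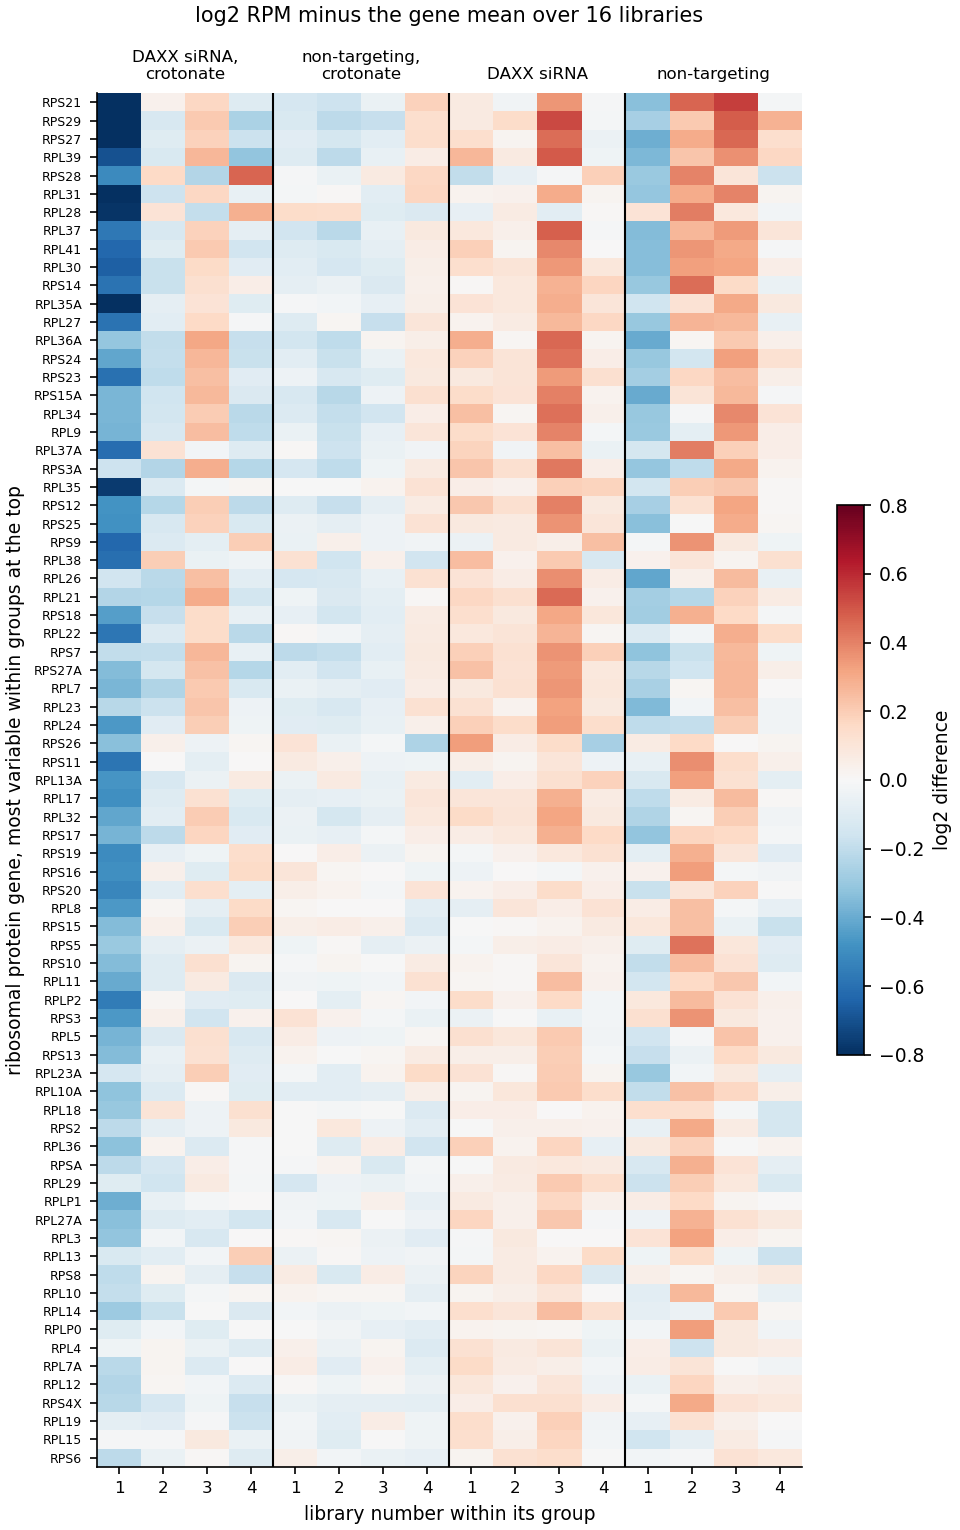
Log2 RPM of 75 of the 76 genes minus its mean over the 16 RNA libraries, with 1 row per gene, the most variable within groups at the top, and 1 column per library in 4 groups. Column 1 of DAXX siRNA cells with crotonate and column 1 of non-targeting cells are low in most rows, with 74 and 69 of 76 genes below their group means.

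With DAXX siRNA, some ribosomal protein messengers were lower with crotonate, and how many depended on scaling and on single libraries. On the deposited log2 RPM scale, 4 of 76 members fell (5% false discovery rate across 17973 genes, limma) and none rose, where 2.41% of all tested genes fell and 13% rose. At an unadjusted p under 0.05, 36 of 76 were lower (6.39% of all genes), and in 6 of 76 every library with crotonate lay below every library without (3.99% of all genes). All 76 fold changes were negative, against 39.9% of all tested genes, and their median was -0.23 log2 while that of all genes was 0.061. By subunit, 2 of 45 members of 60S and 2 of 31 of 40S fell, with medians of -0.22 and -0.23.

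RPL14, a 60S protein, had 548, 591, 669 and 618 RPM in DAXX siRNA cells with crotonate, against 734, 717, 796 and 731 RPM in DAXX siRNA cells. The libraries of the groups did not overlap, and the fold change was -0.30 log2 (SE 0.0733, limma adjusted p = 0.00806). RPL27A, another 60S protein, had 761, 894, 905 and 868 RPM with crotonate and 1082, 989, 1114 and 954 RPM without, a fold change of -0.27 (SE 0.0783, limma adjusted p = 0.022). Its libraries did not overlap either.

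RPS4X, the X-linked gene for a 40S protein that also has a Y-linked copy, had 733, 777, 833 and 751 RPM in DAXX siRNA cells with crotonate and 884, 930.4, 934 and 890.3 RPM in DAXX siRNA cells. All 4 libraries with crotonate were below all 4 without, with a fold change of -0.24 (SE 0.068, limma adjusted p = 0.0225). RPS12, a 40S protein, had 632, 753, 1012 and 762 RPM with crotonate and 1023, 961, 1165 and 931 RPM without. Its fold change was -0.38 (SE 0.125, limma adjusted p = 0.0429), but library 3 with crotonate lay above 2 libraries without it, so the groups overlapped.

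**Figure D3:**
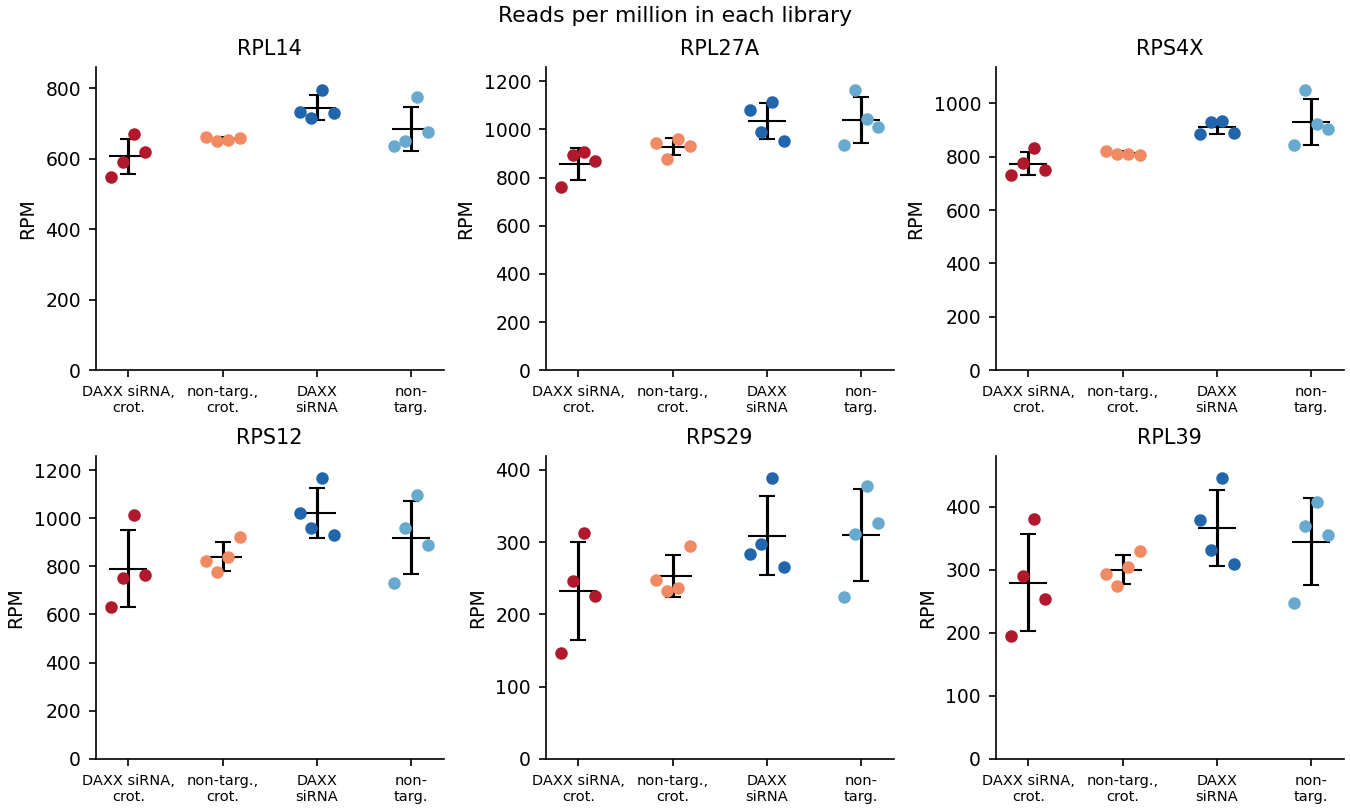
RPM of 6 members in each of the 16 RNA libraries (points, with group mean and SD of 4), in DAXX siRNA and non-targeting cells with crotonate and then without. For RPL14, RPL27A and RPS4X every library of DAXX siRNA cells with crotonate lies below every library of DAXX siRNA cells, whereas RPS12, RPS29 and RPL39 overlap.

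The most negative fold changes belonged to genes with wide spread. RPS29, a small zinc-binding 40S protein, had 147, 246, 312 and 226 RPM in DAXX siRNA cells with crotonate and 283, 298, 388 and 266 RPM in DAXX siRNA cells (-0.44 log2, SE 0.181, limma adjusted p = 0.111). RPL39, which lines the peptide exit tunnel, had 195, 290.2, 380.3 and 254 RPM with crotonate and 379.7, 332, 445 and 309 RPM without (-0.42 log2, SE 0.167, limma adjusted p = 0.105). Libraries of the groups overlapped for both. Toward the other end of the range stood RPS28 at -0.01 and RPLP0, the base of the stalk that recruits translation factors, at -0.06 log2.

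The count depended on how libraries were scaled. When each library was centred on its own median over tested genes, the median fold change of all genes moved by -0.12 log2 in this comparison and by -0.13 with non-targeting siRNA. Members that fell then numbered 43 of 76 (limma, adjusted p under 0.05) beside 8.28% of all tested genes, 28 of 45 from 60S and 15 of 31 from 40S, with a median of -0.34 log2 against -0.055 for all genes. None of the 76 rose, where 8.43% of all genes did, and in 33 of 76 the libraries did not overlap (10.4% of all genes). Relative to the median of all tested genes, the member median was lower by 0.29 log2 (members minus all genes -0.29) under both scalings. Quantile scaling brought that difference to -0.10.

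Under median-centred scaling the 8 members with the smallest limma adjusted p were RPL14, RPS4X, RPL27A, RPL10A of the L1 stalk, RPS12, RPS6, RPLP2 and RPL24. RPL14 changed by -0.41 log2 (limma adjusted p = 0.000931), RPS4X by -0.35 (adjusted p = 0.00225), RPL27A by -0.39 (adjusted p = 0.00314) and RPL10A by -0.36 (adjusted p = 0.00739). RPS12 changed by -0.50 (limma adjusted p = 0.00982), RPS6 by -0.27 (adjusted p = 0.0108), RPLP2 by -0.38 (adjusted p = 0.012) and RPL24 by -0.42 (adjusted p = 0.0125). RPS29 (-0.56 log2, adjusted p = 0.0358) and RPL39 (-0.53, adjusted p = 0.0332) also fell by the same limma test. Among the acidic stalk proteins, RPLP2 and RPLP1 (-0.31, limma adjusted p = 0.0134) fell and RPLP0 did not pass (-0.18, limma adjusted p = 0.13).

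RPL5 and RPL11, which carry the 5S ribosomal RNA into the 60S subunit and bind MDM2 when ribosome assembly fails, were lower to a similar degree. RPL5 had 904, 1079.9, 1277 and 1067 RPM in DAXX siRNA cells with crotonate and 1277, 1243, 1349 and 1146 RPM in DAXX siRNA cells. Its fold change was -0.22 log2 as deposited (limma adjusted p = 0.127) and -0.34 after median-centring (adjusted p = 0.0213). RPL11 had 482, 593, 670.4 and 588 RPM with crotonate and 645, 641, 757 and 654 RPM without, at -0.21 log2 as deposited (limma adjusted p = 0.149) and -0.33 after median-centring (adjusted p = 0.0234).

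Single libraries weighed on these counts. The shares of all tested genes called in the same settings are not given here. Whether members moved more than other genes in them was not tested. Without library 1 of DAXX siRNA cells with crotonate, the member median was -0.13 log2 on the deposited scale with 1 member still called lower, and 14 were called after median-centring. Without library 3 of DAXX siRNA cells 1 and 7 were called, and without library 3 of DAXX siRNA cells with crotonate 31 were called on the deposited scale. Without both libraries of lowest member share, 2 were called on the deposited scale and 21 after median-centring, against 3 and 29 in non-targeting cells. These were library 1 of DAXX siRNA cells with crotonate and library 1 of non-targeting cells, chosen by that share. Leaving them out makes the fall smaller in DAXX siRNA cells and larger in non-targeting cells by construction. No conclusion is therefore drawn from the turned order of the siRNA arms. RPL14 fell in all 24 deposited-scale alternatives tried, with fold changes of -0.41 to -0.21, while RPL27A and RPS4X each kept their call in 18 of 24 and RPS12 in 12.

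In cells with non-targeting siRNA, no ribosomal protein gene passed the test for crotonate on the deposited scale. The count of calls was 0 of 76 in limma and 0 in limma-voom on recovered reads, where 2.34% of all tested genes fell and 13.1% rose. At an unadjusted p under 0.05, 1 of 76 was lower (6.06% of all genes), and in 3 of 76 the libraries did not overlap (4.11% of all genes). Of the fold changes 68 were negative, with a median of -0.06 log2 beside 0.074 for all genes. With quantile scaling the member median was 0.00 and that of all genes -0.030, so members minus all genes became 0.03 and its direction turned. The lowest were RPS29 at -0.27, RPS21 at -0.21 and RPS4X at -0.19, and the highest was RPL23A at 0.10.

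After median-centring, 4 members fell with crotonate in non-targeting cells, beside 9.46% of all tested genes, so their share did not exceed the background. None rose, beside 8.11% of all genes, and in 21 of 76 the libraries did not overlap (12.5% of all genes). As in DAXX siRNA cells, all 76 fold changes were negative on this scale, against 57.9% of all tested genes. Their median was -0.19 log2 beside -0.055 for all genes. At an unadjusted p under 0.05 in limma, 23 of 76 were lower, beside 3329 of 17973 tested genes. RPS4X had 823, 810, 811 and 807 RPM in non-targeting cells with crotonate and 845, 1051, 922 and 904 RPM in non-targeting cells, a median-centred change of -0.32 log2 (limma adjusted p = 0.00456). RPL3, a 60S protein near the peptidyl transferase centre, changed by -0.28 (limma adjusted p = 0.0205), RPL27A by -0.29 (adjusted p = 0.0213) and RPLP0 by -0.27 (adjusted p = 0.0243). RPLP0 had 2643, 2596, 2539 and 2504 RPM with crotonate and 2615, 3349, 2799 and 2600.1 RPM without, where library 2 was far above the others. Without both libraries of lowest member share, 3 members were called on the deposited scale and 29 after median-centring. Library 1 of non-targeting cells, chosen for its low share, is part of this comparison, so a larger fall was built into the choice. The share of all tested genes in that setting is not given here.

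No ribosomal protein gene passed the test for DAXX siRNA in either condition. Without crotonate, limma and limma-voom called 0 of 76, beside 0.306% of all tested genes lower and 0.1% higher, and 57 fold changes were positive with a median of 0.04 log2. Median-centring also called 0 (0.306% of all genes lower, 0.0946% higher). At an unadjusted p under 0.05, 3 members were higher and 0 lower, beside 6.09% of all genes in each direction. They were RPS7 at 0.29, RPL24 at 0.26 and RPL21 at 0.26 log2, with limma adjusted p of 0.33, 0.349 and 0.393. The lowest was RPS3, a 40S protein at the messenger entry site, at -0.18 (SE 0.0949, limma adjusted p = 0.453), followed by RPL28 at -0.16 and RPL3 at -0.11.

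With crotonate, limma and limma-voom again called 0 of 76 after DAXX siRNA, beside 0.668% of all genes lower and 0.389% higher, and 0 members passed an unadjusted p under 0.05 (6.23% of all genes lower, 4.72% higher). Median-centring also called 0 (0.64% of all genes lower, 0.367% higher). Here 71 of 76 fold changes were negative, with a median of -0.08 log2. The lowest were RPL35, near the exit of the peptide tunnel, at -0.25, RPL31 at -0.24 and RPL35A at -0.20, and the highest were RPS7 at 0.06, RPL15 at 0.04 and RPL13 at 0.02. Without both libraries of lowest member share the median became 0.01 log2. Of these, only library 1 of DAXX siRNA cells with crotonate is part of this comparison. It was chosen for its low member share, so a higher median without it was built into the choice.

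The response to crotonate was not shown to differ between DAXX siRNA and non-targeting siRNA. The interaction in limma and in limma-voom called 0 of 76 members and limma called 0% of all tested genes, with 1 member lower at an unadjusted p under 0.05 where 1.3% of all genes were. The median interaction was -0.15 log2 on the deposited scale, -0.13 after median-centring and 0.01 without both libraries of lowest member share. Those libraries were chosen for their low share, so a higher median without them was built into the choice. The most negative values were RPL24 at -0.31 (SE 0.154), RPL35 at -0.30 and RPS25 at -0.28, and RPLP0 was the highest at 0.08. The comparisons share groups, so their values are given side by side and not as independent evidence of one another.

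**Figure D4:**
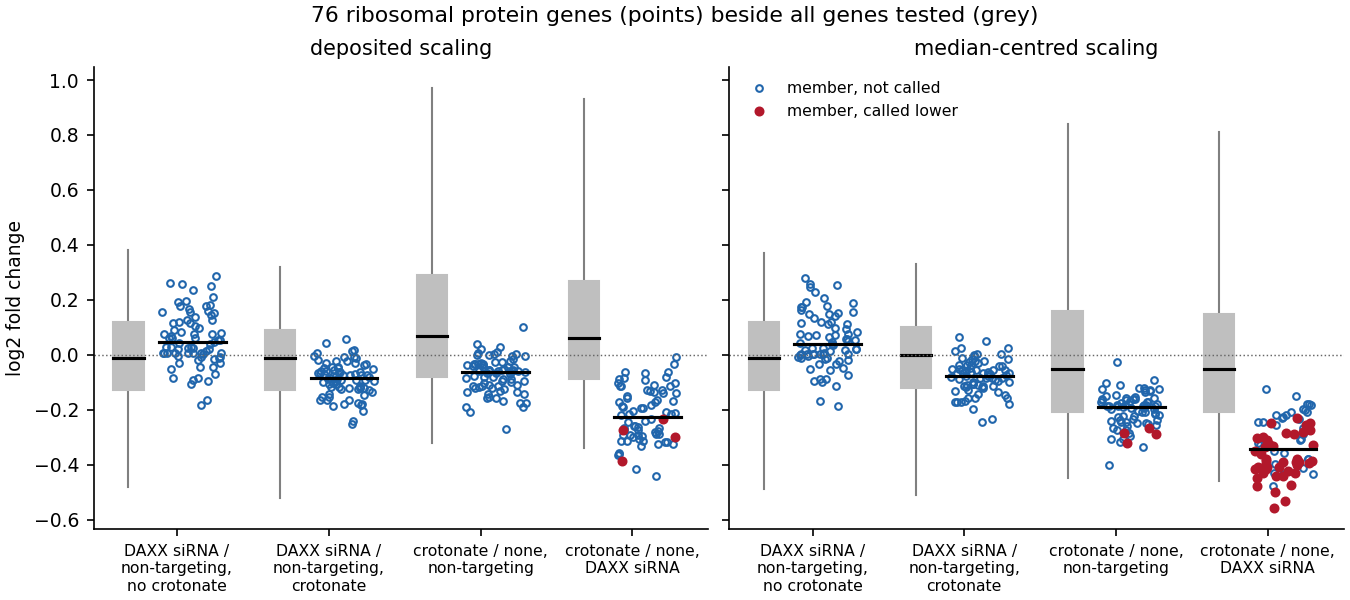
Log2 fold changes of the 76 genes (points, with their median as a line; filled where called lower) in the 4 RNA comparisons, beside all 17973 tested genes (grey box from the 25th to the 75th percentile, line to the 5th and 95th), on the deposited scale (left) and after median-centring (right). In DAXX siRNA cells crotonate gives 76 negative values on both scales, with medians of -0.23 and -0.34. In non-targeting cells it gives 68 on the deposited scale and 76 after median-centring, with medians of -0.06 and -0.19. DAXX siRNA without crotonate gives a median of 0.04.

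Other parts of the ribosome pathway were counted from lists chosen with earlier results known. Their counts stand beside the shares of all tested genes that fell with crotonate, 2.41% in DAXX siRNA cells and 2.34% in non-targeting cells on the deposited scale, and 8.28% and 9.46% after median-centring. The shares with single libraries left out are not given here. Of 54 ribosome biogenesis factors, 12 fell and none rose with crotonate in DAXX siRNA cells (limma, deposited scale, median -0.18 log2), and 16 fell in non-targeting cells (median -0.19). NAT10, an acetyltransferase of ribosomal RNA, changed by -0.30 log2 in DAXX siRNA cells (limma adjusted p = 0.011) and -0.49 in non-targeting cells (adjusted p = 0.000199). After median-centring 26 of the 54 fell in DAXX siRNA cells and 30 in non-targeting cells. These centred counts were 16 (without library 1 of DAXX siRNA cells) to 38 (without library 2 of non-targeting cells) in DAXX siRNA cells, and 19 (without library 1 of non-targeting cells) to 38 (without library 2 of the same group) in non-targeting cells, when single libraries were left out. Leaving out single libraries moved the deposited-scale counts between 4 and 16 in DAXX siRNA cells, lowest without library 3 of DAXX siRNA cells, and between 6 and 21 in non-targeting cells, lowest without library 4 of non-targeting cells with crotonate. Of 15 RNA polymerase I subunits and factors, 4 fell in DAXX siRNA cells and 6 in non-targeting cells (3 without library 1 of non-targeting cells or library 4 of non-targeting cells with crotonate, 4 without library 2 of the same group). POLR1C, a subunit shared with RNA polymerase III, changed by -0.37 (limma adjusted p = 0.00146) in DAXX siRNA cells and by -0.29 (adjusted p = 0.00934) in non-targeting cells.

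Of 30 further genes with TOP messengers, 5 fell in DAXX siRNA cells with crotonate and 1 in non-targeting cells, on the deposited scale. EEF1A1, the elongation factor that delivers aminoacyl-tRNA, changed by -0.29 (limma adjusted p = 0.0126) and EEF1B2, its exchange factor, by -0.34 (adjusted p = 0.0147) in DAXX siRNA cells. Of 37 translation factors, 3 fell in DAXX siRNA cells and 0 in non-targeting cells. The lists overlap, and EEF1A1 and EEF1B2 are counted in both the TOP list and the translation factor list. Of 8 tested cytosolic ribosomal protein genes whose symbols the rule leaves out, 1 fell, RPL36AL at -0.40 (limma adjusted p = 0.0342) in DAXX siRNA cells, and 0 fell in non-targeting cells. Of 78 mitochondrial ribosomal proteins, 6 fell in DAXX siRNA cells, and 2 fell and 1 rose in non-targeting cells. After median-centring, 14 of the 30 TOP genes, 9 of the 37 translation factors, 5 of the 8 ribosomal protein genes and 26 of the 78 mitochondrial ribosomal proteins fell in DAXX siRNA cells, against 8, 11, 0 and 16 in non-targeting cells. On the deposited scale, leaving out single libraries moved the count in DAXX siRNA cells between 1 and 7 for TOP genes and between 2 and 13 for mitochondrial ribosomal proteins. Both were lowest without library 3 of DAXX siRNA cells (the TOP count also without library 1 of DAXX siRNA cells with crotonate, the mitochondrial count also without library 1 of DAXX siRNA cells) and highest without library 3 of DAXX siRNA cells with crotonate. Translation factors ranged between 1 and 6 and the ribosomal protein genes outside the rule between 0 and 4. The median-centred counts in DAXX siRNA cells ranged between 5 and 18 for TOP genes, 3 and 16 for translation factors, 2 and 6 for ribosomal protein genes outside the rule and 11 and 36 for mitochondrial ribosomal proteins. All 4 were lowest without library 3 of DAXX siRNA cells and highest without library 2 of non-targeting cells, in part together with other libraries. In non-targeting cells they ranged between 4 and 11, 4 and 17, 0 and 2, and 5 and 21, in the same order of lists.

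Of 25 genes of mTORC1 and growth control, 2 rose with crotonate in each siRNA arm and none fell on the deposited scale, a share below the 13% and 13.1% of all tested genes that rose, while after median-centring 2 rose and 1 fell in DAXX siRNA cells, and 1 rose and 8 fell in non-targeting cells. SESN3, an mTORC1 inhibitor, rose by 1.04 log2 in DAXX siRNA cells (limma adjusted p = 0.000133) and by 1.35 in non-targeting cells (adjusted p = 7.48e-06). DEPTOR, an mTOR-binding inhibitor, rose by 0.67 in DAXX siRNA cells (limma adjusted p = 0.0117). Of 10 genes of the checkpoint that links faulty ribosome assembly to p53, 4 fell with crotonate in DAXX siRNA cells and 2 in non-targeting cells on the deposited scale. When single libraries were left out these counts were 1 (without library 3 of DAXX siRNA cells or library 2 of DAXX siRNA cells with crotonate) to 5, and 1 (without library 1 of non-targeting cells, or library 2 or 4 of non-targeting cells with crotonate) to 3. Of 10 nuclear-retained and short-lived transcripts, 3 rose with crotonate in each arm, and the sum of the list was 714 to 957 RPM in DAXX siRNA cells with crotonate and 624 to 797 RPM in DAXX siRNA cells. With non-targeting siRNA that sum was 774 to 862 RPM with crotonate and 678 to 799 RPM without. The 13 mitochondrially encoded messengers had medians of 0.24 log2 in DAXX siRNA cells and 0.10 in non-targeting cells, with 0 called by limma; the part of these lists in the ribosomal protein values was not tested.

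Anti-Kcr signal was present at the starts of most ribosomal protein genes. A region lay within 2 kb of the annotated start in 68 of 76 members (89.5%), against 68.5% of all tested genes and 85.2% of the 1512 tested genes at or above the lowest member mean. RPL4, RPL5, RPL10, RPL28, RPL37A, RPS18, RPS20 and RPS25 had none there in the deposited annotation. The 61 regions assigned to members had a median width of 3300 bp, against 1800 bp for all regions. By position, 35 of the 61 lay at the start of their gene and 26 away from it. Of the 61, 55 (90.2%) were above input in every anti-Kcr library, against 84% of all regions. The 73 regions at starts of members, whatever gene they were assigned to, had a median width of 4050 bp. That of regions at starts of tested genes was 3000 bp. Above input in every library were 94.5% of the 73, against 90.5% of regions at starts of tested genes.

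Per library, the median of anti-Kcr minus input over the 61 regions averaged 0.86 ± 0.264 log2 in DAXX siRNA cells with crotonate (SD, n = 2) and 0.83 ± 0.16 in non-targeting cells with crotonate (n = 2). It averaged 1.20 ± 0.158 in DAXX siRNA cells (n = 3) and 1.11 ± 0.126 in non-targeting cells (n = 3), where libraries 1A and 1B of a group, which differed by little more than read sampling, were averaged and counted as 1 sample. Over regions at starts of all tested genes these means were 0.83, 0.74, 1.10 and 1.06 log2 in the same groups, close to those of the member regions. The input was 1 library, which the labels assign to DAXX siRNA cells without crotonate, and every value over input, also in the other 3 groups, was taken against it. A median of 35 input reads stood behind a member region, and the input column was not subtracted by the authors.

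**Figure D5:**
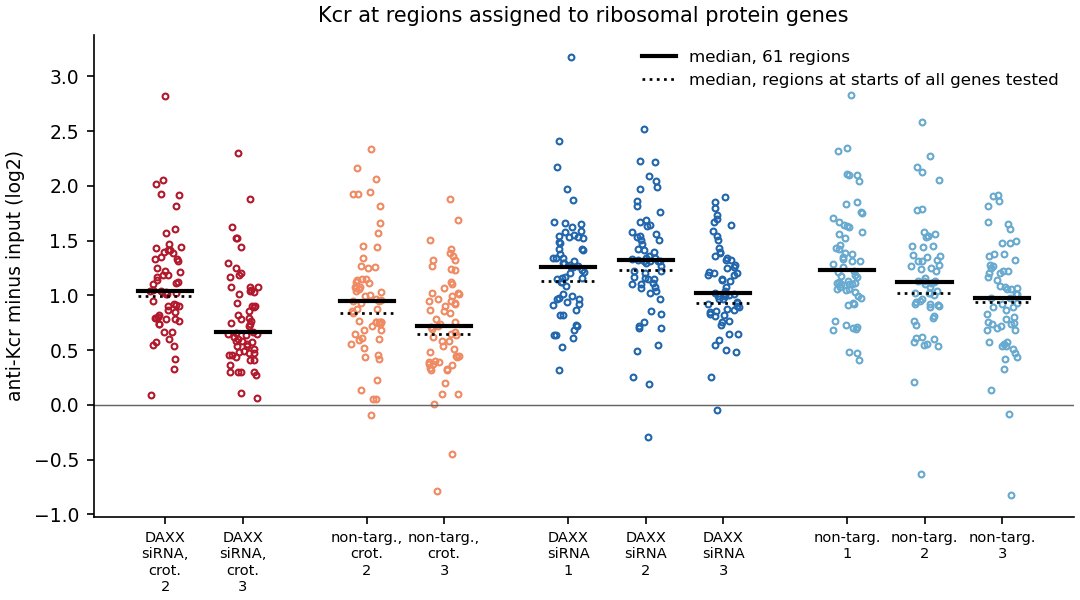
Anti-Kcr minus input (log2) over the regions assigned to ribosomal protein genes in each ChIP library, 1 point per region, with the median of the regions (solid) and of regions at starts of all tested genes (dotted). Groups with crotonate stand left of those without, and numbers are those in the library names. Group means of the library medians are 0.86 and 0.83 with crotonate, against 1.20 and 1.11 without.

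The signal over input differed widely among members. RPL39 at chrX:119791051-119792550 had 1.48, 1.60, 1.93 and 1.67 log2 over input in DAXX siRNA cells with crotonate, non-targeting cells with crotonate, DAXX siRNA cells and non-targeting cells. RPS19, a 40S protein mutated in Diamond-Blackfan anaemia, had 1.53, 1.27, 1.68 and 1.66 at chr19:41859451-41862600. RPL36A had the highest values, 2.56, 1.83, 2.54 and 2.18 at chrX:101391001-101391900, but these rest on 3 input reads. One of the RPL22 regions, chr1:6208351-6212400, had low values, at 0.10, 0.14, 0.15 and 0.25.

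No member region passed the test in any Kcr comparison. Limma and limma-voom called 0 of 61 in each of the 4 comparisons and in the interaction, where limma called 0% of all regions too. With crotonate, 11 of 61 regions were lower at an unadjusted p under 0.05 in DAXX siRNA cells (7.92% of all regions, 17.8% of regions at starts of tested genes), and 18 of 61 in non-targeting cells (12.8% and 29.6%). The median was -0.27 log2 in DAXX siRNA cells and -0.32 in non-targeting cells on the deposited scale, and -0.13 and -0.15 after median-centring. Regions at starts of tested genes had nearly the same medians, -0.26 and -0.32 as deposited and -0.13 and -0.15 after median-centring. The lower values were thus not particular to member regions. DAXX siRNA gave medians of 0.11 with crotonate and 0.04 without on the deposited scale, against 0.083 and 0.026 over regions at starts of tested genes. In limma-voom 4 of 61 regions were lower at an unadjusted p under 0.05 with crotonate in DAXX siRNA cells and 6 in non-targeting cells. The shares of all regions above are from limma, and those in limma-voom are not given here. The limma-voom counts are therefore not read as a result about member regions.

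Start regions of single members are given as values only, since none passed. RPS4X, at a region of 750 bp whose nearest feature is PIN4 (chrX:72276601-72277350), had -0.32 log2 over input in DAXX siRNA cells with crotonate and 1.33 in DAXX siRNA cells, a difference of -1.65 (limma adjusted p = 0.43), with 7 input reads. In non-targeting cells the region at the RPS2 start, whose nearest feature is NDUFB10 (chr16:1961851-1969800), had 0.50 with crotonate and 1.11 without, a difference of -0.61 (limma adjusted p = 0.231). RPS15A at chr16:18789001-18791550 had 0.12 with crotonate and 0.84 without in the same cells, a difference of -0.72 (limma adjusted p = 0.232). RPL14, whose RNA fell in DAXX siRNA cells, had 0.96 at its start region with crotonate and 0.91 without in those cells, a difference of 0.04 (limma adjusted p = 0.965). Its other start region, chr3:40454701-40455900, had 0.53 with crotonate and 1.17 without, a difference of -0.64 (limma adjusted p = 0.582), with 11 input reads. The RPS12 start lies beside a region assigned to SLC18B1 (chr6:132812401-132814500), with 0.79 in DAXX siRNA cells with crotonate and 1.05 in DAXX siRNA cells, a difference of -0.26 (limma adjusted p = 0.743).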

How the data were processed

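RNA-seq (16 libraries) and anti-Kcr ChIP-seq (12 libraries and 1 input) of HCT116 cells were used. Per the submitters' processing notes, reads were trimmed with Trim Galore 0.6.2 (RNA) or 0.6.5 (ChIP) and cutadapt 2.3, aligned to GRCh38 with HISAT2 2.2.1 or Bowtie2, and ChIP regions came from MACS; the sources used here do not give the counting tool or strand. The deposited RNA values are log2 RPM, not divided by gene length, with 0 reads entered as 0.9, and the deposited ChIP values are log2 reads per region after scaling by 1 factor per library. A log2 value moves when other transcripts take more of a library. Genes with at least 0.25 RPM in at least 4 libraries were tested with limma 3.58.1 (R 4.3.3; trended prior variance, 1 coefficient per group, Benjamini-Hochberg over all genes or regions, called under 0.05), and again after centring each library on its median. Alternatives were quantile scaling, other filters, limma-voom on recovered reads (whole for 100% of values within 0.01 read), a replicate block and leaving out each library. Same-numbered RNA libraries had correlations of -0.149 to 0.188 over the 4 comparisons, so the numbers were not taken to pair samples. For crotonate in DAXX siRNA cells, however, they were 0.106, 0.0287, 0.125 and 0.188. There libraries 1, 3 and 4 correlated best with their own number and library 2 with number 3. A pairing in that comparison is therefore not excluded, and counts with the replicate block are given below. Libraries 1A and 1B differed by a chi-squared over degrees of freedom of 1.012 and 1.007 (1.035 to 1.273 for other pairs). Named members are the called ones with the smallest adjusted p (at most 8 per comparison), the 3 highest and 3 lowest fold changes per comparison and members with a known role; genes of a list are up to 2 called ones per comparison. The members, lists and tests were chosen with earlier results of these data known. 1 member is counted with the others but not reported here by itself. Code was tested on simulated data.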

Additional observations from a re-analysis of the deposited data

Results flagged for a closer look

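Single libraries stood far from the other 3 of their group for several members, by a gap to the nearest library that took up most of the range of the group (Dixon's test at its 95% limit). The share of reads on the 76 ribosomal protein genes was 7.65% in library 3 of DAXX siRNA cells, where the other 3 libraries were at 6.95% to 7.04%. In the same library RPL11 was high at 757 RPM. In library 4 of non-targeting cells with crotonate RPL10, a late-joining 60S protein, was the lowest of its group at 924 RPM, while RPL10A at 762 RPM and RPL11 at 693 RPM were the highest of theirs. Among DAXX siRNA cells, RPL3 had 2105 RPM in library 2, RPLP0 had 2587 RPM in library 4, and RPSA, a 40S protein also known as the laminin receptor, had 2017 RPM in library 1. Of 304 combinations of member and group, 27 (8.88%) passed this limit, which about 1 in 20 independent values would pass. Members move together from library to library, so the combinations are not independent. Whether 27 is more than chance gives cannot be told from them. Library 3 of DAXX siRNA cells held 10 of the 27 and library 4 of non-targeting cells with crotonate held 8.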

How the results depend on the processing

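Counts of members called lower depended on scaling and on single libraries. Except for the deposited and median-centred scalings with all libraries, the shares of all tested genes in these settings are not given here. Whether members moved more than other genes in them was not tested. For crotonate in DAXX siRNA cells the count of 4 became 43 after median-centring, 1 with quantile scaling, 1 with no filter beyond 1 read, 24 with the replicate block, 2 without both libraries of lowest member share, and 1 to 31 when each library was left out (2 without library 1 or library 2 of DAXX siRNA cells, 7 without library 2 of non-targeting cells). After median-centring the count of 43 was 7 to 58 when each library was left out (22 without library 1 of DAXX siRNA cells, 26 without library 2 of DAXX siRNA cells with crotonate), 21 without both libraries and 60 with the replicate block. For crotonate in non-targeting cells the count of 0 became 4 after median-centring, 1 with the replicate block, 3 without both libraries, and 0 to 1 when each library was left out (1 without library 1 of non-targeting cells). After median-centring its count of 4 was 12 with the replicate block, 29 without both libraries and 1 to 13 when each was left out (1 without library 2 of non-targeting cells or library 4 of non-targeting cells with crotonate, 13 without library 1 of DAXX siRNA cells with crotonate). The 2 libraries of lowest share were chosen after their values were seen, by the measure itself. None of the 76 genes was called for DAXX siRNA or the interaction in any of the settings run. Member regions of Kcr with crotonate gave 1 call with the replicate block in non-targeting cells, and 0 to 2 when each library was left out in DAXX siRNA cells (2 without the library numbered 2 of DAXX siRNA cells with crotonate). Leaving mitochondrial reads out of the total raised the mean share in every group. It became 6.49% in DAXX siRNA cells with crotonate and 6.83% in non-targeting cells with crotonate. Without crotonate it became 7.34% in DAXX siRNA cells and 7.19% in non-targeting cells. Only the value of non-targeting cells with crotonate moved by more than the SD of its group (0.137), the smallest of the groups. Other single values counted as unchanged in 424 cases. For a named member this meant that direction and call were kept. For a member median it meant a move of less than 0.132 log2, whatever its sign. Named members lost their call in 33 cases. Another 2 values moved, both the member median of the interaction without both libraries of lowest member share (0.010 on the deposited scale and 0.012 after median-centring). The cause of these changes was not tested. The depth of RNA did not limit members, since the fewest reads were 3741, whereas member regions rest on a median of 35 input reads and on 2 anti-Kcr samples per siRNA with crotonate.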
